A study of Mus musculus with 24 samples.

Results

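Peg3 (ENSMUSG00000002265, a zinc finger gene expressed from the paternal allele) and 9 other imprinted genes were followed across 4 diets in mouse liver. The 10 genes were listed by symbol as H19, Igf2r, Grb10, Plagl1, Mest, Cdkn1c, Gnas, Meg3, Zdbf2 and Peg3, and 9 of them had a row among the 15161 genes of the count table. Zdbf2 had no row in the table used here. Peg3 was chosen by its measured level, which was higher in the casein MR group than in the other groups, so its values are given as a description without a test. The other genes were listed by name as imprinted genes. All 9 genes with a row passed the filter on low counts, which left 13441 genes tested.

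Imprinted genes are read mainly from the allele of 1 parent. The alleles of the parents are told apart by DNA methylation laid down in the egg or sperm at imprinting control regions. Many imprinted genes act on growth before and shortly after birth, and their level in liver falls sharply as the animal matures. Methyl groups on DNA come from S-adenosylmethionine, which is made from methionine. The counts below do not tell the parental alleles apart, and DNA methylation is not among the measurements used here.

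The livers were those of C57BL6/J males, mice of an inbred strain, taken when the animals were 4 months old. Methionine restriction (MR) was given either in a diet of elemental amino acids or with oxidized casein as the protein source, and each MR diet had its own control diet. The control diets held 0.86% methionine and the MR diets 0.17%. The groups, with 6 libraries in each of the 4, are named by protein source and diet, from elemental control and elemental MR to the casein control and the casein MR group. Only the casein of the MR diet was labelled as oxidized, so restriction and oxidation cannot be told apart in any comparison with casein MR. The labels do not say whether the libraries of a group came from separate mice, so p-values measure the spread between these libraries.

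The depth lay between 13.5 and 20.8 M counted reads per library. Levels are given in CPM, counts scaled to a common library total. The 6 hepatocyte markers Alb, Apoa1, Ttr, Tat, Cps1 and Hnf4a were detected in every group. Their summed level ran from 100944 to 110811 CPM in elemental control, 79280 to 87097 CPM in elemental MR, 89970 to 107510 CPM in casein control and 58091 to 65845 CPM in casein MR. One library of casein MR, C_MR_3438, stood apart with 2188 CPM summed over 11 skeletal muscle markers, against 76.2 CPM in C_MR_3425 and 35.7 CPM or less in the others. In E_C_3430 of elemental control, 5 markers of pancreatic acinar cells summed to 1420 CPM, against 18 CPM or less in the other 23 libraries. Summed markers of cholangiocytes were lower on both MR diets, with overlap on casein. They ran from 36.1 to 58.9 CPM in elemental control, 20.6 to 33.5 CPM in elemental MR, 42.8 to 82.6 CPM in casein control and 24.1 to 46.8 CPM in casein MR. Those of stellate cells and fibroblasts ran from 425 to 500 CPM in elemental control and, without overlap, from 364 to 419 CPM in elemental MR. On casein these sums overlapped, at 427 to 505 CPM in control and 385 to 525 CPM in MR. The part of these cell types in the results below was not tested. Results of the casein MR group are given with and without C_MR_3438 where a call, a count of calls or a value discussed below moved. In bulk tissue, fewer cells of a type and less RNA per cell cannot be told apart.

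The 250 bases upstream of the RefSeq start site of Peg3 (GRCm38.p6, chr7:6730420-6730669, minus strand) are shown because Peg3 was the member with the widest separation between groups, and those of Plagl1 (chr10:13090582-13090831, plus strand) because its protein is a zinc finger factor that binds the GGGGCCCC motif. Capitals mark matches to 4 motifs searched on both strands, namely GGGGCCCC (PLAGL1), TGCCGC (ZFP57, which guards methylated imprinting control regions), GCCATNTT (YY1) and TGATGNAA (the amino acid response element bound by ATF4).

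Peg3: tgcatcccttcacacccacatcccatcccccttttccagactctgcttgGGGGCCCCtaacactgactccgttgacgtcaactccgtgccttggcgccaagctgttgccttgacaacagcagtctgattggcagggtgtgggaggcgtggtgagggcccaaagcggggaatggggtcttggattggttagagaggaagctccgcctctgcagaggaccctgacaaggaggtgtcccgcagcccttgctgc
Plagl1: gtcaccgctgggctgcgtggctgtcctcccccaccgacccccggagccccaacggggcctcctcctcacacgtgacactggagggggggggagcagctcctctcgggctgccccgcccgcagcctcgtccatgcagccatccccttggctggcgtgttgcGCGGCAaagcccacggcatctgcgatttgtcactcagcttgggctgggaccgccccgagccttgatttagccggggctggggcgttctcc

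RefSeq promoter windows, which run from 250 bases before to 50 after a start site, were found for 8 of the 10 members. H19 and Cdkn1c had no entry. The Peg3 window held 1 match to GGGGCCCC, from -201 to -194 relative to the start site, and that motif occurs in 1.08% of 32851 windows of the same length. It held no match to TGCCGC, GCCATNTT or TGATGNAA, which occur in 11.6%, 6.05% and 3.97% of the windows. The Plagl1 window held GCGGCA, the TGCCGC motif read on the other strand, from -90 to -85. Grb10, Mest, Meg3 and Zdbf2 also had a window with a match to TGCCGC on either strand, while Igf2r and Gnas, like Peg3, had none. Several members had more windows than Peg3, so the share of 11.6% per window cannot be set against a count of members. Peg3 had 13 CpG dinucleotides in its window and Plagl1 had 26, with a median of 7 over all windows.

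Peg3 encodes a large zinc finger protein and is known for its roles in growth, body fat and maternal behaviour. Its level in elemental control ran from 3.26 CPM through a median of 4.37 to 6.01 CPM, in elemental MR from 3.67 through 5.16 to 7.7 CPM, and in casein control from 2.4 through 3.42 to 4.87 CPM. In casein MR it ran from 18.2 through 22.5 to 26.2 CPM. All 6 casein MR libraries thus stood above all 18 others, and the other 3 groups overlapped with one another. The group means were 4.49 ± 0.971 CPM in elemental control, 5.34 ± 1.52 CPM in elemental MR, 3.51 ± 1.04 CPM in casein control and 22.7 ± 2.8 CPM in casein MR (SD, n = 6 each).

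**Figure D1:**
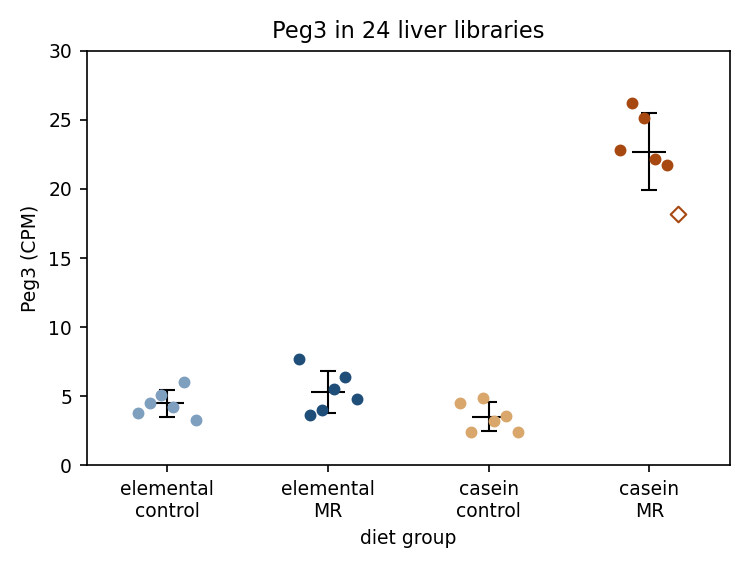
Peg3 level in CPM (vertical axis) in each of the 24 libraries by diet group; points are libraries, the open diamond is C_MR_3438, and bars give the mean ± SD. The 6 casein MR libraries sit between 18.2 and 26.2 CPM and the other groups at 7.7 CPM or less.

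The log2 fold change of Peg3 was 2.67 ± 0.18 (SE) with casein MR, a 6.37-fold higher level, and 0.26 ± 0.18 with elemental MR. The difference between these MR effects, casein minus elemental, was 2.41 ± 0.26. Among all 13441 genes ordered from the largest rise, Peg3 held place 60 with casein MR and place 32 for the difference. Between the MR diets it was 2.08 ± 0.17 higher on casein, and between the control diets its log2 value on casein was -0.33 ± 0.19. Genes whose casein MR libraries all stood above all casein control libraries made up 4.82% of the genes tested, and those whose casein MR libraries all stood above all elemental MR libraries made up 1.58%.

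C_MR_3438, the library with skeletal muscle RNA, had the lowest Peg3 level of its group, at 18.2 CPM. Without it the log2 fold change with casein MR was 2.73 ± 0.18 and the difference between the MR effects was 2.47 ± 0.26. Over the 24 fits that left out 1 library each, the casein MR value stayed between 2.60 and 2.79. The casein MR group, highest in Peg3, was the lowest in summed hepatocyte markers, and the groups did not overlap with it in either. Of the 6 hepatocyte markers, 5 fell with casein MR (median log2 fold change -0.68, and 0.01 over all genes) and 2 fell with elemental MR (median -0.12). Over all genes 12.7% fell with casein MR and 6.64% with elemental MR. For the difference between the MR effects 2 of the 6 were called lower, where 2.34% of all genes were called in either direction. The part of this shift in the Peg3 values was not tested. The depth behind these values was 400 to 460 reads per library in casein MR and 30 to 127 reads in the other groups.

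The transcript of H19 (ENSMUSG00000000031) is a long noncoding RNA, abundant in fetal liver, silenced there after birth and retained in adult skeletal muscle. Its level ran from 0.244 through a median of 0.576 to 1.36 CPM in elemental control, from 0.249 through 0.529 to 1.91 CPM in elemental MR and from 0.207 through 0.737 to 2.51 CPM in casein control. In casein MR it ran from 0.403 through 0.964 to 80.2 CPM. The other 5 of these 6 libraries reached 3.54 CPM at most, and the highest was C_MR_3438, with 1763 of the 2115 H19 reads of the whole series.

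H19 was called with that library and not without it. With casein MR its log2 fold change was 3.72 ± 1.01 (adjusted p = 0.00754, edgeR's quasi-likelihood test), and without C_MR_3438 it was 0.17 ± 0.58 (adjusted p = 0.881). Between the MR diets the value went from 4.25 ± 1.04 (adjusted p = 0.0111) to 0.71 ± 0.59 (adjusted p = 0.604). C_MR_3425, next in muscle markers in casein MR at 76.2 CPM, was also next in H19 at 3.54 CPM, and C_C_3413, which led casein control in muscle markers at 35.7 CPM, led that group in H19 at 2.51 CPM. Likewise, E_MR_3423 led elemental MR in both muscle markers (15.2 CPM) and H19 (1.91 CPM). Elemental control did not follow this order: E_C_3401 had the highest H19 level there, 1.36 CPM, and the lowest muscle marker sum, 9.43 CPM. Other marker sums were high in these libraries too. E_MR_3423 also led elemental MR in markers of adipocytes (16.8 CPM), pancreatic acinar cells (18 CPM), mesothelium (8.22 CPM) and stellate cells (419 CPM), and C_C_3413 led casein control in adipocyte markers (9.63 CPM). The part of any of these tissues in the H19 values was not tested.

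**Figure D2:**
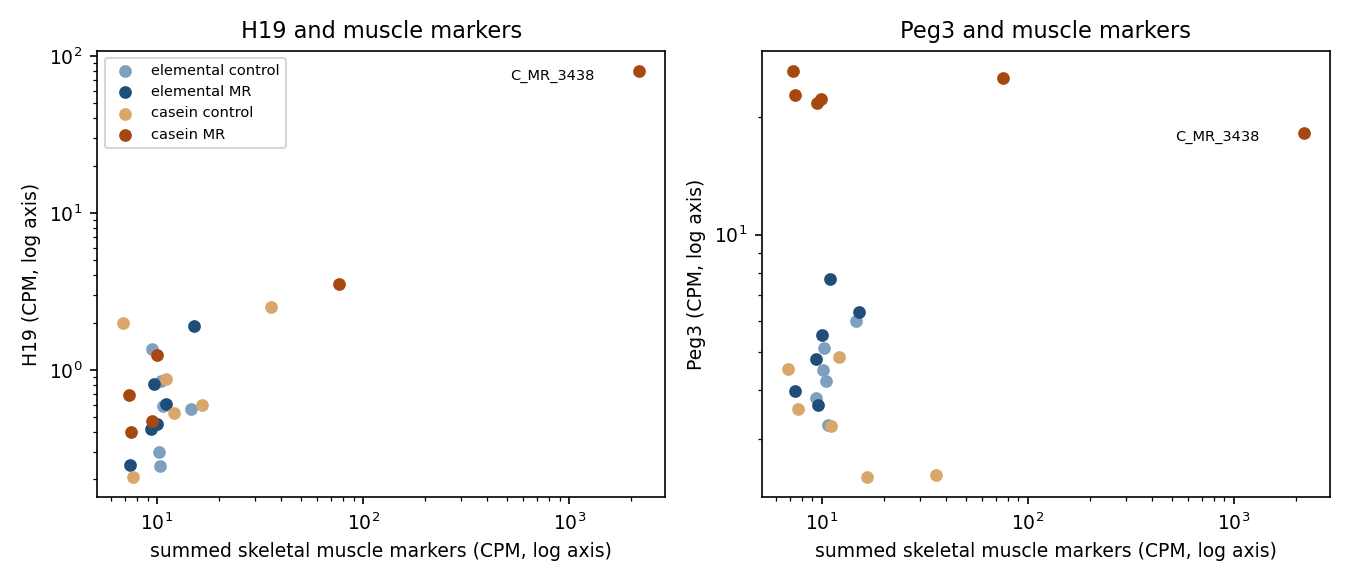
H19 (left) and Peg3 (right) in CPM against the summed CPM of 11 skeletal muscle markers, both on log axes; each point is 1 of 24 libraries, coloured by diet group. C_MR_3438 has the highest muscle sum, 2188 CPM, with 80.2 CPM of H19 and 18.2 CPM of Peg3.

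Of the 8 members besides Peg3, 2 were called higher and 0 lower with casein MR at an adjusted p under 0.05 over all genes tested. They were H19 and Cdkn1c, and without C_MR_3438 Cdkn1c alone was called. All genes called with casein MR made up 23.3% of those tested (10.6% higher and 12.7% lower), and 21.4% without C_MR_3438. With elemental MR 0 of the 8 were called, against 13.4% of all genes (6.78% higher and 6.64% lower). At an unadjusted p under 0.05 this was 1, Cdkn1c, and DESeq2 and limma-voom called 0. The median log2 fold change of the 8 was 0.18 with casein MR and -0.08 with elemental MR, beside 0.01 and 0.00 over all genes. With casein MR 3 of the 8, Cdkn1c, H19 and Meg3, had an unadjusted p under 0.05. For the difference between the MR effects 0 of 8 were called (2.34% of all genes), with 1 at an unadjusted p under 0.05, Gnas, and 0 called by DESeq2 and by limma-voom.

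Cdkn1c (ENSMUSG00000037664) encodes p57, an inhibitor of cyclin-dependent kinases that is read from the maternal allele. It ran from 2.71 through a median of 4.07 to 4.23 CPM in elemental control and from 4.2 through 4.62 to 5.89 CPM in elemental MR. In casein control it ran from 3.11 through 3.99 to 4.7 CPM and in casein MR from 3.73 through 5.65 to 7.29 CPM. The MR groups were the higher ones on both protein sources, and each overlapped its control. The log2 fold change was 0.53 ± 0.16 with casein MR (edgeR adjusted p = 0.0138) and 0.38 ± 0.16 with elemental MR (adjusted p = 0.118), and the difference of 0.15 ± 0.22 did not pass (adjusted p = 0.868).

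The highest Cdkn1c library, C_MR_3431, also led its group in the summed markers of stellate cells and fibroblasts (525 CPM, others of the group 439 CPM or less), of endothelium (393 CPM, others 360 CPM or less) and of Kupffer cells and macrophages (418 CPM, others 266 CPM or less). Without it Cdkn1c had a log2 fold change of 0.44 with casein MR and an adjusted p of 0.047. The call held in all 24 fits that left out 1 library, and with all libraries it did not pass an adjusted p under 0.01. The part of these cell types in the Cdkn1c result was not tested.

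Gnas (ENSMUSG00000027523) encodes the stimulatory G protein alpha subunit that couples the glucagon receptor to cyclic AMP, and its locus gives rise to several imprinted transcripts that share exons. It stood at 373 ± 26.7 CPM in elemental control, 346 ± 28.9 CPM in elemental MR, 399 ± 46.7 CPM in casein control and 444 ± 48.7 CPM in casein MR (SD, n = 6). Neither MR effect passed the test, with log2 fold changes of -0.11 ± 0.08 (elemental, edgeR adjusted p = 0.419) and 0.15 ± 0.08 (casein, adjusted p = 0.177). Between the MR diets Gnas was higher on casein by 0.36 ± 0.08 (adjusted p = 0.00447, and 0.007 without C_MR_3438), and the libraries ran from 310 to 381 CPM on elemental MR and from 374 to 496 CPM on casein MR. Of the 8 members, Gnas and H19 were called in that comparison, beside 6.50% of all genes (2.72% higher and 3.78% lower). Without C_MR_3438 it was Gnas alone, beside 5.14%. The median log2 value of the 8 in that comparison was 0.45 (0.47 without C_MR_3438), beside 0.00 over all genes, and 5 of the 8 had an unadjusted p under 0.05, namely Gnas, Grb10, H19, Meg3 and Plagl1.

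Meg3 (ENSMUSG00000021268) is a long noncoding RNA of the maternal allele. It ran from 2.03 to 2.69 CPM in elemental control and from 0.498 to 4.79 CPM in elemental MR, the wider of these groups. In casein control it ran from 1.24 to 3.56 CPM and in casein MR from 2.31 through a median of 3.18 to 7.16 CPM. The pair of high libraries in casein MR were C_MR_3412 (7.16 CPM) and C_MR_3438 (6.28 CPM), and the other 4 were at 3.26 CPM or less. The log2 fold change with casein MR was 0.82 ± 0.36 (edgeR adjusted p = 0.105), and 0.66 ± 0.37 without C_MR_3438 (adjusted p = 0.231). With elemental MR it was -0.04 ± 0.37 (adjusted p = 0.969).

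The receptor Igf2r (ENSMUSG00000023830), which carries the growth factor IGF2 to lysosomes and is read from the maternal allele, showed the least movement. Its means were 24.4 ± 2.84, 23.7 ± 2.96, 24.4 ± 2.41 and 23.7 ± 3.68 CPM in the elemental control, elemental MR, casein control and then the casein MR group (SD, n = 6). The log2 fold changes were -0.04 ± 0.10 with elemental MR (edgeR adjusted p = 0.846) and -0.05 ± 0.10 with casein MR (adjusted p = 0.806). Its ligand gene Igf2, a gene of the paternal allele, stood at group means of 0.331 to 0.619 CPM and passed in no comparison.

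Grb10 (ENSMUSG00000020176), an adaptor that restrains signalling from the insulin and IGF1 receptors, ranged over 1.62 to 3.08 CPM in elemental control, 1.93 to 2.53 CPM in elemental MR, 1.94 to 4.12 CPM in casein control and 2.01 to 5.27 CPM in casein MR. Its log2 fold change was -0.16 ± 0.21 with elemental MR (edgeR adjusted p = 0.696) and 0.19 ± 0.20 with casein MR (adjusted p = 0.579). The highest value came from C_MR_3431, and without that library the casein value was -0.02. Between the MR diets Grb10 had a value of 0.55 ± 0.21 on casein against elemental (adjusted p = 0.119).

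Plagl1 (ENSMUSG00000019817), a transcription factor of the paternal allele known to act on a network of other imprinted genes, stood at means of 1.28 ± 0.456, 1.08 ± 0.336, 1.58 ± 0.661 and 1.78 ± 0.578 CPM in the same order of groups (SD, n = 6). The libraries held 8 to 54 Plagl1 reads each, and no comparison passed. Its value between the MR diets was 0.70 ± 0.29 (edgeR adjusted p = 0.161) and with casein MR 0.17 ± 0.28 (adjusted p = 0.725). Mest (ENSMUSG00000051855), a paternally expressed hydrolase-like gene linked to growth of fat tissue, stood at 2.48 ± 0.472, 1.94 ± 0.602, 3.05 ± 1.32 and 2.26 ± 0.649 CPM (SD, n = 6). Its log2 fold changes were -0.35 ± 0.26 with elemental MR (adjusted p = 0.43) and -0.43 ± 0.25 with casein MR (adjusted p = 0.244), and neither passed. Adipocyte markers, of which 4 of 5 had a row, summed to 2.35 to 9.63 CPM in casein control and 0.23 to 2.64 CPM in casein MR. In the elemental groups the sums went the other way, from 0.0601 to 3 CPM in control and from 0.187 to 16.8 CPM in MR. The part of adipocytes in the Mest values was not tested.

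**Figure D3:**
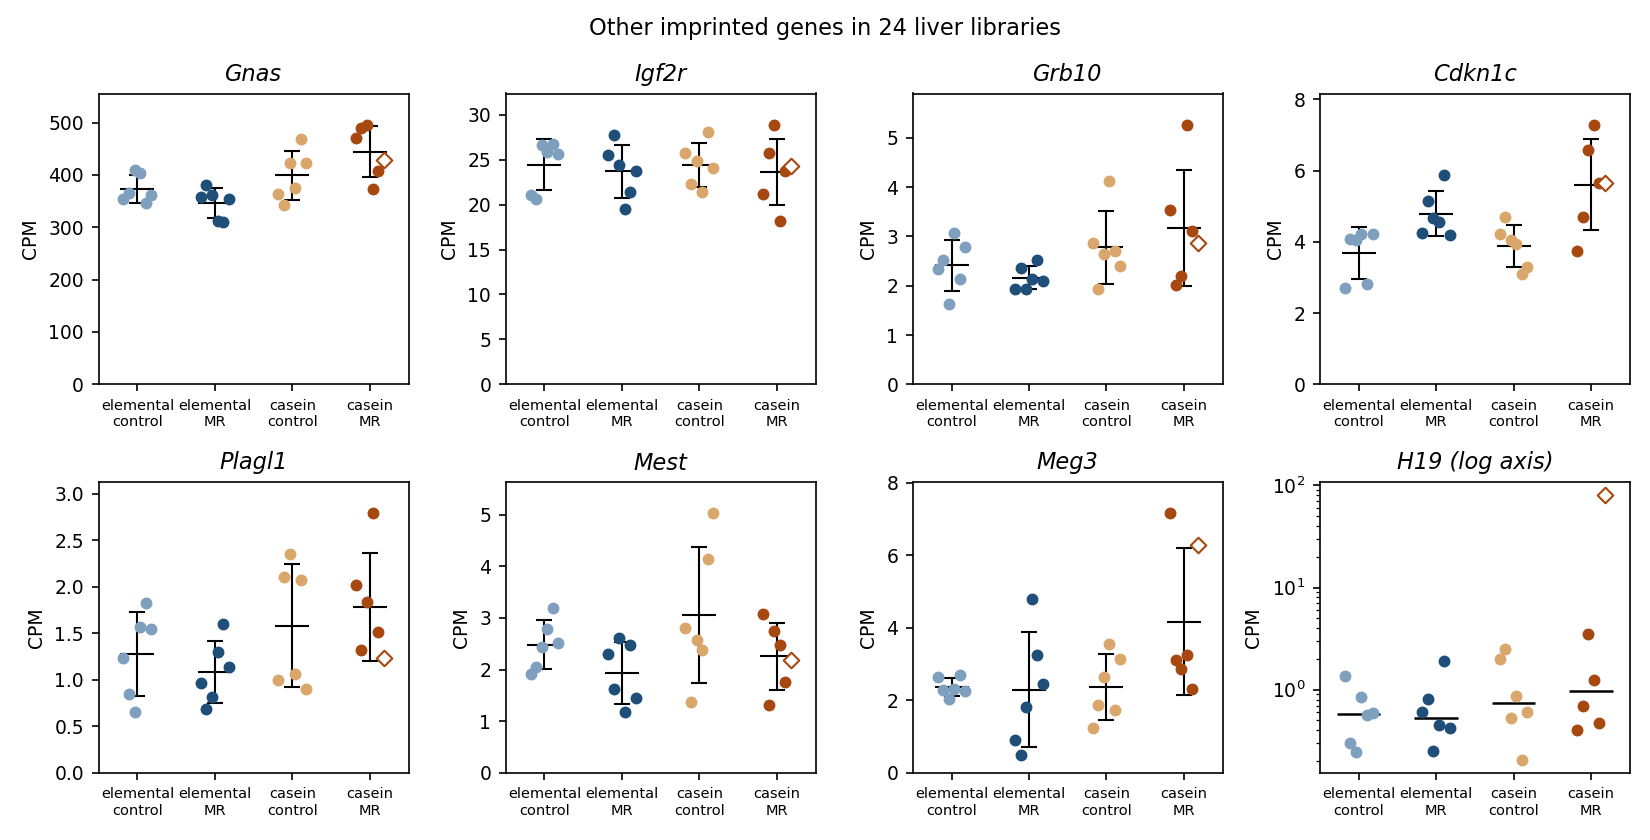
Levels in CPM (vertical axes) of the 8 other members with a row in each of 24 libraries by diet group; points are libraries, open diamonds are C_MR_3438, bars give the mean ± SD, and for H19, on a log axis, lines give the median. H19 reaches 80.2 CPM in C_MR_3438, and in every panel the casein MR libraries overlap casein control.

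**Figure D4:**
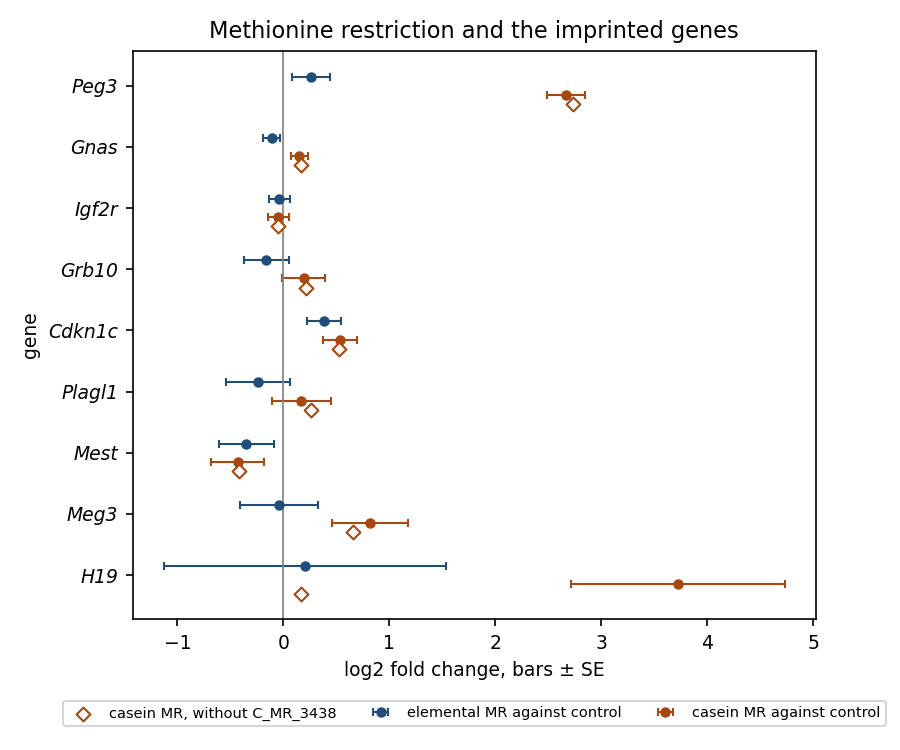
Log2 fold change with MR (horizontal axis, bars ± SE) of the 9 members with a row, with elemental amino acids in blue and casein in orange; open diamonds repeat the casein value without C_MR_3438. Peg3 stays at 2.73 without that library and H19 goes from 3.72 to 0.17.

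Between the control diets 0 of the 8 members passed with edgeR, at an adjusted or an unadjusted p under 0.05, and DESeq2 and limma-voom called 0. Over all genes 0.104% were called in that comparison. The comparisons of protein sources share libraries with the MR comparisons, so their values are not independent of them.

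A wider list of 57 imprinted mouse genes without the 10 members was taken from general knowledge of the field. Of these, 34 had a row and 32 passed the filter. With casein MR 4 rose and 5 fell (4 and 6 without C_MR_3438), where 10.6% of all genes rose and 12.7% fell. With elemental MR 3 rose and 2 fell, where 6.78% of all genes rose and 6.64% fell. The medians of the 32 log2 fold changes were -0.05 with casein MR (0.01 over all genes) and -0.02 with elemental MR (0.00 over all genes). For the difference between the MR effects edgeR called 0, with 6 at an unadjusted p under 0.05, limma-voom called 0, and DESeq2 called Impact. Several genes of this list are known to be imprinted only in placenta or brain, so the list does not describe genes that are imprinted in liver.

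Among the 12 tested genes listed under the paternal allele, 2 rose and 0 fell with casein MR, beside 10.6% and 12.7% of all genes. Without C_MR_3438 2 rose and 1 fell. The gene that differed was Snrpn, a splicing factor gene named here after its values were seen. It ran from 7.42 to 11.6 CPM in casein control and stood at 12.8 CPM in C_MR_3438 and at 6.37 to 7.02 CPM in the other 5 casein MR libraries. Its log2 fold change was -0.28 ± 0.16 with that library (edgeR adjusted p = 0.243) and -0.49 ± 0.13 without it (adjusted p = 0.00857). Impact, an inhibitor of the amino acid sensing kinase GCN2, ran from 5.74 to 6.72 CPM in casein control and from 9.56 to 16.8 CPM in casein MR. These groups did not overlap, and the log2 fold change was 1.01 ± 0.13 (edgeR adjusted p = 8.20e-07, and 8.09e-07 without C_MR_3438). With elemental MR Impact went from 5.98 ± 0.736 to 7.82 ± 0.903 CPM, a value of 0.39 ± 0.13 (adjusted p = 0.0446) that held in 15 of 24 fits leaving out 1 library, with a highest adjusted p of 0.102 without E_MR_3405. The difference between the MR effects was 0.62 ± 0.18 (edgeR adjusted p = 0.0693, DESeq2 adjusted p = 0.0487), and between the MR diets Impact was higher on casein by 0.67 ± 0.12 (edgeR adjusted p = 0.000747). Impact thus passed in both MR comparisons, whereas the difference between them was called by DESeq2 and not by edgeR.

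Airn, the long noncoding RNA that runs antisense through Igf2r and silences it on the paternal allele, rose with casein MR. Its libraries ran from 0.553 to 2.24 CPM in casein control and from 1.95 to 3.82 CPM in casein MR, a log2 fold change of 1.26 ± 0.26 (edgeR adjusted p = 0.00066, and 0.00231 without C_MR_3438). With elemental MR the value was 0.43 ± 0.26 (adjusted p = 0.308), and the difference of 0.83 ± 0.37 did not pass (adjusted p = 0.334). Igf2r had a value of -0.05 in the same casein comparison. No source used here says whether the counting used strand, so Airn reads cannot be told apart from unspliced Igf2r RNA where both overlap. Slc22a3, an organic cation transporter next to Igf2r, fell by 0.87 with casein MR (SE 0.26, adjusted p = 0.0142, and 0.062 without C_C_3407).

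Zrsr1, a splicing factor gene inside an intron of Commd1, rose by 0.44 ± 0.10 with elemental MR (edgeR adjusted p = 0.00385) and had a value of 0.24 ± 0.10 with casein MR (adjusted p = 0.0887). Peg10, a gene of retrotransposon origin, fell by 1.28 with elemental MR (SE 0.42, adjusted p = 0.0446). That call held in 10 of 24 fits leaving out 1 library, with a highest adjusted p of 0.0993 without E_MR_3416, and libraries of elemental MR held 2 to 11 Peg10 reads.

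Of the 20 tested genes listed under the maternal allele, 2 rose and 5 fell with casein MR. With elemental MR 1 rose and 1 fell. Ddc, which rose in both comparisons, was placed in this group although its known imprinted transcript is read from the paternal allele. Over all genes 10.6% rose and 12.7% fell with casein MR, and 6.78% rose and 6.64% fell with elemental MR. Ppp1r9a, which encodes the actin-binding protein neurabin, fell on both protein sources. It went from 8.71 ± 1.75 to 3.08 ± 0.832 CPM with elemental MR and from 8.42 ± 1.83 to 3 ± 0.929 CPM with casein MR (SD, n = 6). The log2 fold changes were -1.50 ± 0.20 (edgeR adjusted p = 7.69e-06) and -1.48 ± 0.20 (adjusted p = 2.62e-06), with no overlap between MR and control in either. Genes that lay wholly below their control in this way made up 3.59% of those tested with elemental MR and 6.18% with casein MR. Ddc, which makes dopamine and serotonin from their precursors and neighbours Grb10, rose by 0.58 ± 0.15 (adjusted p = 0.00817) and 0.52 ± 0.15 (adjusted p = 0.00981).

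The other falls with casein MR were those of the potassium channel gene Kcnq1 (-1.02 ± 0.27, edgeR adjusted p = 0.00619), the tetraspanin Cd81 (-0.34 ± 0.06, adjusted p = 0.000131) and the signal peptide peptidase H13 (-0.20 ± 0.06, adjusted p = 0.0146, and 0.0625 without C_C_3437). Ago2, the argonaute protein that cleaves RNA targets, rose by 0.26 ± 0.08 (adjusted p = 0.0243, and 0.0679 without C_MR_3431). Kcnq1, Cd81 and Cdkn1c lie in 1 imprinted cluster, and the first pair fell while Cdkn1c rose. The noncoding RNA of that cluster, Kcnq1ot1, stood at group means of 67.1 to 73.1 CPM and had a value of 0.05 ± 0.12 with casein MR (adjusted p = 0.815). It runs antisense within Kcnq1, so without knowing the strand setting the reads of this pair cannot be told apart where they overlap.

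**Figure D5:**
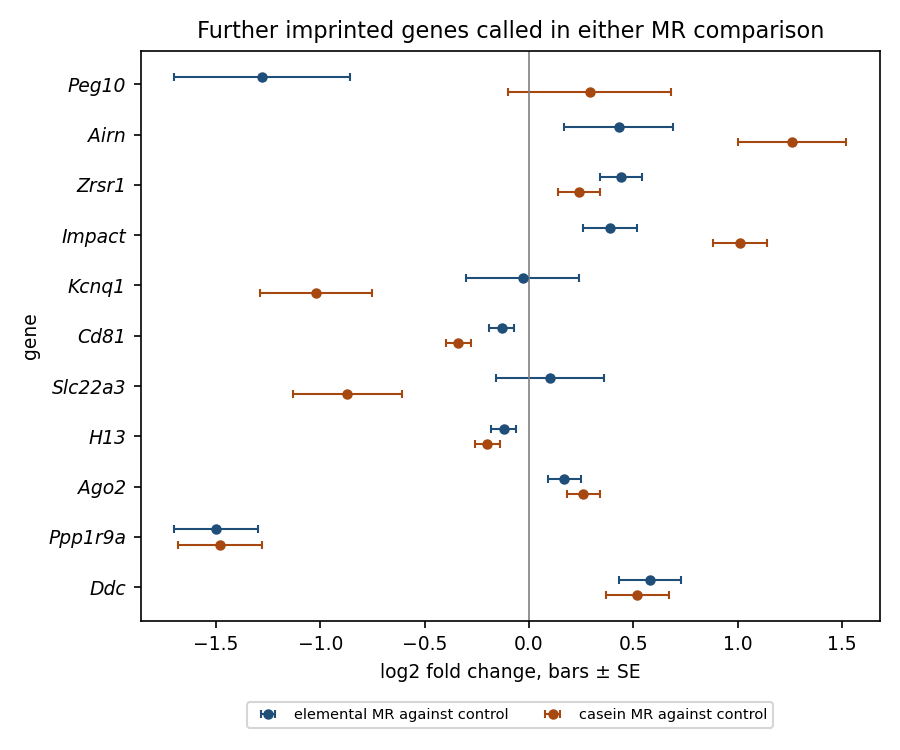
Log2 fold change with MR (horizontal axis, bars ± SE) of the 11 genes of the wider imprinted list called in either MR comparison, with elemental amino acids in blue and casein in orange. Ppp1r9a has -1.50 and -1.48, and Impact has 0.39 and 1.01.

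Genes next to Peg3 were read from the RefSeq order (GRCm38.p6). The nearest entries on either side, 13 before and 10 after Peg3, held no gene that was tested. Of the 8 nearest tested genes, 4 on each side, 2 rose and 0 fell with casein MR, where 23.3% of all genes were called, so the count gives no result about the region. The zinc finger genes Zfp28 (0.95 ± 0.31, edgeR adjusted p = 0.0246) and Zfp954 (0.44 ± 0.12, adjusted p = 0.0089) were the nearest ones on their sides. Zinc finger genes of this region resemble one another in sequence, and reads could have been split among them.

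Of the proteins that protect or read imprints, 2 of 7 tested were called with casein MR (1 without C_MR_3438) and 1 of 7 with elemental MR, where 23.3% and 13.4% of all genes were called. The list held 10 genes. With casein MR Trim28, the corepressor recruited to methylated control regions, rose by 0.28 ± 0.07 (edgeR adjusted p = 0.00465). It also rose with elemental MR, by 0.25 ± 0.07 (adjusted p = 0.0162). Ctcf, the insulator protein that binds between H19 and Igf2, fell by 0.24 with casein MR (SE 0.09, adjusted p = 0.0427, and 0.0693 without C_MR_3438). Dnmt1, which copies DNA methylation at replication, had values of 0.02 ± 0.12 and -0.03 ± 0.12 with elemental and casein MR.

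Among genes of fetal liver, Afp, Gpc3 and Igf2 were tested of 7 listed, and Dlk1, Igf2bp1, Igf2bp3 and Lin28b had no row in the table used here. Afp, alpha-fetoprotein, went from 1.56 ± 0.582 to 0.784 ± 0.304 CPM with elemental MR and fell by 1.01 (SE 0.33, edgeR adjusted p = 0.0414). With casein MR its value was -0.23 ± 0.31 (adjusted p = 0.663), and the difference of 0.78 ± 0.45 did not pass (adjusted p = 0.523). The glypican gene Gpc3 (0.32 ± 0.39, adjusted p = 0.627) and Igf2 (0.22 ± 0.46, adjusted p = 0.79) did not pass with casein MR. Zhx2 and Zbtb20, known repressors of fetal genes in adult liver, had values of -0.24 ± 0.14 (adjusted p = 0.234) and -0.23 ± 0.11 (adjusted p = 0.122) in that comparison.

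The genes whose log2 CPM followed Peg3 most closely over the 24 libraries were not imprinted genes of these lists. Pearson's r was 0.94 for Serinc2, a membrane protein of the serine incorporator family, 0.93 for Retsat, which saturates retinol, and 0.92 for Map1lc3a, an autophagy protein. It was 0.91 for both Hsd17b11, a lipid droplet dehydrogenase, and the fatty aldehyde dehydrogenase Aldh3a2. Ech1, an isomerase of fatty acid oxidation, the adrenergic receptor gene Adra2a and the proteasome activator subunit Psme1 followed at 0.90. Retsat went from 442 to 1593 CPM between the casein groups and from 488 to 717 CPM between the elemental groups. Peg3 was chosen for its high level in casein MR, so r over all libraries mostly restates that group difference. These correlations are given as a description without a test. After removing each group's mean, r within groups ran from 0.33 for Ech1 to 0.49 for Map1lc3a, apart from Hsd17b11 at -0.12. The genes that ran most opposite to Peg3 were Serpina1b (r = -0.96, within groups -0.68) and Dmgdh (-0.96, within groups -0.66). Bhmt (-0.96, within groups -0.42) and C8g (-0.95, within groups -0.50) came next.

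Of the members, Cdkn1c came nearest to Peg3, with r = 0.55 and place 859 of 11210 genes ranked, and Gnas followed with 0.49. Meg3 had 0.42, Plagl1 0.35, Grb10 0.27, Igf2r -0.07 and Mest -0.14. H19 had 0.30, and 0.13 without C_MR_3438. These places rest on the same group difference. Within groups the r of the members with Peg3 ran from -0.18 for H19 to 0.22 for Plagl1, with Cdkn1c at -0.10 and Gnas at 0.04.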

How the data were processed

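RNA from 24 mouse liver libraries was sequenced by the submitters. The deposited raw table holds whole-number counts for each Ensembl gene. The deposited normalized table holds a signal that was checked to equal the counts divided by 1 size factor per library (0.745 to 1.32). For the aligner, counter, strand and genome build the answer is not given in the sources used here. Symbols came from the deposited table, and those of H19 and Meg3 from the GENCODE annotation.

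Counts entered edgeR 4.0.16 in R 4.3.3. After filterByExpr, 13441 genes (99.93% of reads) were scaled by TMM and fitted in 1 quasi-likelihood model with a mean per group. Adjustment over all genes followed Benjamini and Hochberg, and an adjusted p under 0.05 was a call. Standard errors came from the F statistic, and log2 CPM used a prior count of 2. The code was tested on simulated counts. Totals of 13.5 to 20.8 M reads limit precision for members with few reads.

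The members and lists were chosen with earlier results of these data known. Named were the 10 members, genes of the wider imprinted list called in any comparison, called guardians of imprints, the fetal genes, and the 8 genes with the highest r to Peg3 among genes with a given name and a mean log2 CPM of 0 or more. Zfp28, Zfp954 and Snrpn were named after their values were seen. The uncalled Dnmt1 and Kcnq1ot1, and the genes with the lowest r to Peg3, were named outside these rules. Alternatives were leaving out each library, a threshold of 0.01 on the adjusted p, DESeq2 1.42.0, limma-voom (limma 3.58.1) with quality weights, fits of only the compared groups, no filter, a stricter filter (1 CPM or more in all libraries of some group), upper quartile scaling, and the size factors of DESeq2. All 24 libraries entered the reported fit.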

Additional observations from a re-analysis of the deposited data

Results flagged for a closer look

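In groups of 6 libraries, a library was marked where its gap to the nearest other exceeded Dixon's 95% critical share of the group's range, which chance gives in about 1 of 20 groups. Of 36 groups 2 were marked, both for H19. In casein MR, C_MR_3438 had 80.2 CPM of H19, against 3.54 CPM in the next library. In elemental MR, E_MR_3423 had 1.91 CPM, against 0.809 CPM in the next.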

How the results depend on the processing

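Peg3 moved by less than its within-group SD of 0.34 (log2 CPM) under all alternatives run. The 2 members called with casein MR became 1 at an adjusted p under 0.01, with the 1 CPM filter, DESeq2 and limma-voom, and 1 to 3 when 1 library was left out (1 without C_MR_3438). The 2 called between the MR diets became 1 under these settings and with the compared groups alone, and 1 to 3 when 1 library was left out (1 without C_MR_3438). Part of this follows from H19, which the 1 CPM filter removed and to which DESeq2 gave no p. With casein MR, H19 was the member left at an adjusted p under 0.01, and Cdkn1c (edgeR adjusted p = 0.0138) was lost. With the 1 CPM filter, DESeq2 and limma-voom the member left was Cdkn1c. For H19, limma-voom gave 1.23 with casein MR (adjusted p = 0.463) and 1.66 between the MR diets (adjusted p = 0.418), and the compared groups alone gave 4.26 (adjusted p = 0.0618); leaving out 1 library gave 0.17 to 4.09 with casein MR and 0.71 to 4.83 between the MR diets.

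Of the wider list, the 5 called with elemental MR became 3 at an adjusted p under 0.01 and with limma-voom, and 3 to 5 when 1 library was left out (3 without E_C_3417, E_C_3427, E_C_3430, E_MR_3405, E_MR_3423 or E_MR_3424). The 0 called for the difference became 1 with DESeq2 and 0 to 1 when 1 library was left out (1 without C_C_3421 or C_MR_3431). Between the MR diets 2 of 32 were called, beside 6.50% of all genes, so the count gives no result about the list. These 2 became 1 at an adjusted p under 0.01 and 1 to 3 when 1 library was left out (1 without C_MR_3412).

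Values that turned sign were all uncalled. Mest's difference between the MR effects, -0.08, was 0.03 with limma-voom and -0.21 to 0.12 when 1 library was left out. Leaving out 1 library also gave -0.39 to 0.17 for Meg3, -0.09 to 0.01 for Igf2r and -0.38 to 0.54 for H19 with elemental MR, -0.11 to 0.02 for Igf2r and -0.02 to 0.34 for Grb10 with casein MR, and -0.03 to 4.10 for the H19 difference. Meg3 between the MR diets passed without E_MR_3420 (1.21, adjusted p = 0.0408), and Gnas with casein MR passed without C_C_3436 (0.21, adjusted p = 0.0476). The causes were not tested. No paired analysis was possible because the libraries share no replicate numbers. Plagl1, Peg10, Igf2 and H19 rest on few reads, so small changes in them were not detectable at this depth.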
